A study of Mus musculus with 27 samples.

Results

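The cytosolic ribosomal protein genes of the mouse kidney were examined after graded ischemia. They were taken by symbol, as all genes named Rpl or Rps with a number, Rplp0, Rplp1, Rplp2 or Rpsa, leaving out rows marked as pseudogenes (-ps) and the Rps6 kinases, with a value above 0 in at least 3 kidneys. This gave 89 genes of the 19392 listed, and no gene with a matching symbol was lost to the filter on low values. Of the 89, 74 encode core proteins of the subunits (31 of the small 40S and 43 of the large 60S subunit), 3 encode the acidic stalk proteins of the 60S subunit, and 11 are duplicated or retroposed copies. The remaining gene is Rps19bp1, which encodes a binding protein of Rps19 and not a ribosomal protein, although its symbol fits.

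The kidneys came from C57BL/6 mice whose left renal pedicle was clamped for 0 min (sham), 16, 18, 20, 22, 24, 26, 28 or 30 min. In this model the right kidney was removed in the same operation, and the left kidney was taken after 24 h of reperfusion. The paper lists 0 min among the groups of the model, but does not state separately that the sham mice lost the right kidney. Each time had 3 mice, 27 kidneys in all, and RNA of the left kidney was sequenced. Part of the left kidney was fixed for histology, and the paper does not state which part gave the RNA. The age and sex of the mice are not given in the sources used here. Levels are FPKM, fragment counts divided by transcript length and by the fragments sequenced in that kidney. The number of fragments per kidney is not known, but the value of 1 fragment, read from 96 low genes whose FPKM rise in steps, lay between 0.969 and 1.02 of its median in the 27 kidneys, so their depths were close.

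A ribosome reads mRNA with its 40S subunit and joins amino acids in its 60S subunit. Cells make the core proteins in near-equal amounts, and translation of their mRNAs is controlled together. Most of these mRNAs begin with a cytosine followed by an unbroken run of pyrimidines, the terminal oligopyrimidine (TOP) motif, which the mTORC1 pathway and its partner Larp1 use to hold back or release translation. RNA levels, which are what was measured here, are not a measure of that translation.

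The starts of 10 of the genes show where this motif is found and where the annotation does not place it. RefSeq promoters (GRCm38.p6) were found for 69 of the 89 genes, with 81 annotated starts. In each line 30 bases before and 10 bases from the annotated first base are given, with the pyrimidine run that follows a C at the first base in capitals. The first 5 have the longest runs among the core genes whose annotated first base is a C, up to 13 pyrimidines, of which the window holds 10.
Rpl15, chr14:18270977-18271016, minus strand: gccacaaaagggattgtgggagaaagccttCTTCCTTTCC
Rpl35, chr2:39005122-39005161, minus strand: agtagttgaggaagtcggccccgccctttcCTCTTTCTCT
Rps10, chr17:27635235-27635274, minus strand: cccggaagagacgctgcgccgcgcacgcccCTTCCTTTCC
Rps18, chr17:33955656-33955695, minus strand: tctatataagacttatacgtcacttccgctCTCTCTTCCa
Rps6, chr4:86857358-86857397, minus strand: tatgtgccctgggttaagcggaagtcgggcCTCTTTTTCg
Rplp2, chr7:141447621-141447660, plus strand: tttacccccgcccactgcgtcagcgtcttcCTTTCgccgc
Rps27, chr3:90213639-90213678, minus strand: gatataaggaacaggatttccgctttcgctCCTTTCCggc
Rps27rt, chr9:114982730-114982769, minus strand: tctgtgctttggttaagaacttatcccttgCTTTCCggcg
Rpl12, chr2:32961682-32961721, plus strand: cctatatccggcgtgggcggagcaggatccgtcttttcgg
Rps12, chr10:23787200-23787239, minus strand: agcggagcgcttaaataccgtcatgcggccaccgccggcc
Rplp2 stands for the stalk. Rps27 is shown with its retroposed copy Rps27rt, whose annotated start repeats the end of the Rps27 run (CTTTCCggc) in other surroundings. Rpl12 and Rps12 had the largest increases among the core genes at 28 and 30 min against sham, and their annotated first bases do not open such a run.

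A C at the first base followed by at least 4 bases that are each C or T was found at 15 of the 81 starts of ribosomal protein genes (18.5%) and at 823 of the 32851 promoters in the table (2.51%). Over the first 5 bases, C or T made up 61.0% of bases in ribosomal protein genes and 44.7% in all promoters. From 60 to 11 bases before the start the values were 52.2% and 49.9%. An annotated first base can lie some bases from the one used in kidney, so the count describes the annotation only.

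**Figure D1:**
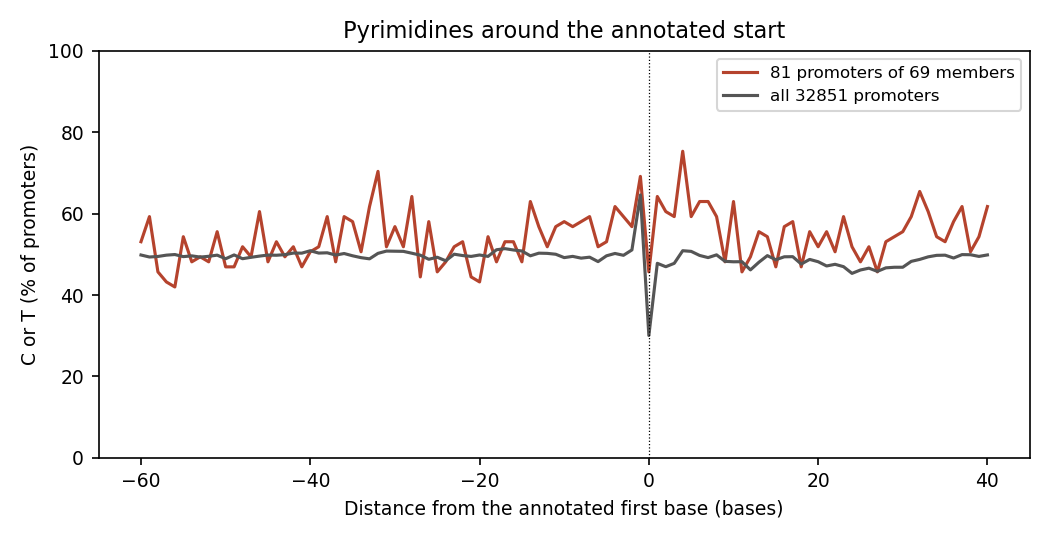
Share of promoters with C or T (y axis, %) at each distance from the annotated first base (x axis, bases), for the 81 starts of 69 ribosomal protein genes (red) and for all 32851 promoters (grey). The red line stands above the grey one over the first bases, where the means over 5 bases are 61.0% and 44.7%.

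The genes also share their build. In GENCODE vM21, 88 of the 89 had an entry, spread over 19 chromosomes, and 86 were annotated as protein coding. The other 2, the copies Rpl32l and Rpl37rt, were annotated as processed pseudogenes, although their symbols lack the -ps mark. The median coding length was 454.5 bases, against 1173 bases over all protein-coding genes. A small nucleolar RNA gene lay within 30 of the 88 (34.1%), on the same strand, and within 1.18% of all protein-coding genes. Rpsa and Rps12 each enclosed 3 of them.

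Ribosomal protein genes held a small part of the kidney transcriptome, which was larger after ischemia and largest at 28 and 30 min. Their summed share of all FPKM was 5.34, 5.28 and 5.72% in the 3 kidneys at 0 min, a mean of 5.44% ± 0.239 (SD, n = 3). At 16 min it was 7.48, 8.15 and 5.85%. From 18 to 26 min the 15 kidneys lay between 6.94 and 8.45%, and the group means between 7.42 and 7.94%. At 28 min the share was 10.3, 10.3 and 10.7%, a mean of 10.4% ± 0.219 (SD, n = 3), and at 30 min it was 11.1, 9.61 and 8.87%, a mean of 9.85% ± 1.12 (SD, n = 3). All 24 clamped kidneys stood above the sham kidneys, and all 6 kidneys at 28 and 30 min stood above the other 21. The 16 min group was the widest, since its replicate 3, at 5.85%, lay close to the 5.72% of the highest sham kidney.

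**Figure D2:**
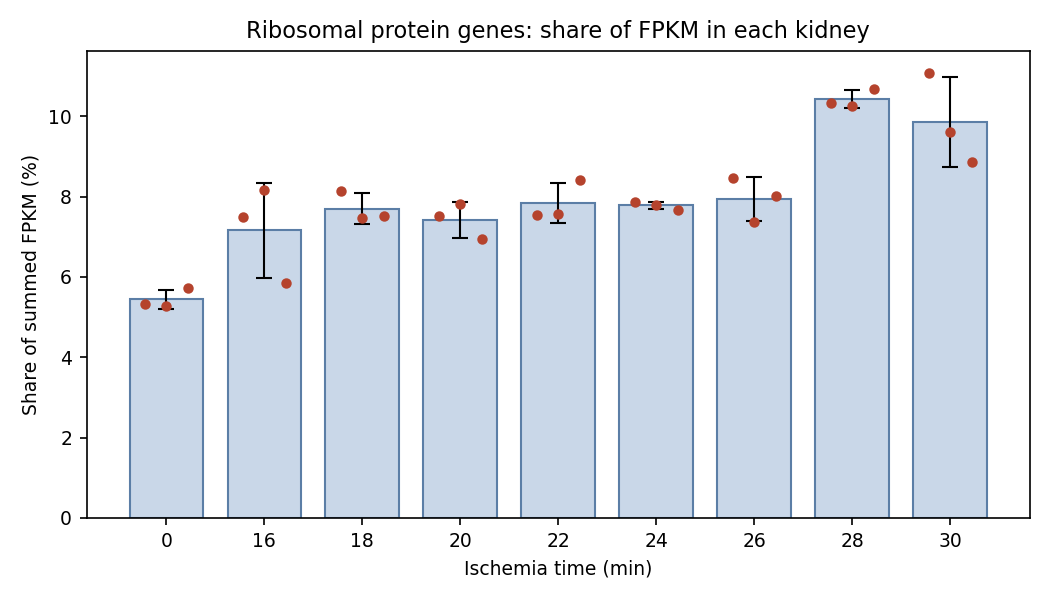
Share of summed FPKM held by the 89 ribosomal protein genes (y axis, %) by ischemia time (x axis, min). Bars are means, error bars SD, points the 3 kidneys of each time. The bars form 3 levels, 5.44% at 0 min, 7.16 to 7.94% from 16 to 26 min, and 10.4 and 9.85% at 28 and 30 min.

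The steps in this share came with others in the composition of the RNA. Kap, an androgen-regulated transcript of the proximal tubule, alone held 8.68 to 9.26% of FPKM at 0 min, 1.19 to 1.45% at 28 min and 0.931 to 1.43% at 30 min. Without Kap in the total, the share of the ribosomal protein genes was 5.98% ± 0.249 at 0 min, 8.13% ± 0.569 at 26 min and 10.6% ± 0.238 at 28 min (SD, n = 3 each). The 5 proximal tubule markers summed to between 2613 and 2974 FPKM at 0 min and between 641 and 744 FPKM at 30 min, and 4 of the 5 fell. The 3 hemoglobin genes summed to between 106 and 464 FPKM at 0 min and between 597 and 1086 FPKM at 30 min, and all 3 rose. The 4 markers of cycling cells, Mki67, Top2a, Ccnb1 and Cdk1, were called higher than at 0 min at every time from 16 to 28 min and not at 30 min. They summed to between 1.90 and 3.56 FPKM at 0 min, 13.1 and 37.7 FPKM at 16 min, 14.4 and 17.0 FPKM at 28 min, and 4.89 and 10.9 FPKM at 30 min. The 3 neutrophil markers summed to between 2.24 and 7.39 FPKM at 0 min, 2.77 and 6.02 FPKM at 26 min, 9.22 and 13.6 FPKM at 28 min, and 13.7 and 22.2 FPKM at 30 min, and 2 of the 3 were called higher from 26 to 28 min. Markers of T and B cells summed to at most 2.28 FPKM at 0 min and 0.62 FPKM at 30 min. In one 30 min kidney the loop of Henle markers Umod and Slc12a1 summed to 2176 FPKM, against 498 and 502 FPKM in the others. In kidney tissue fewer cells of a type and less RNA per cell cannot be told apart, and the part of these shifts in the ribosomal protein results was not tested.

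Gene by gene, the levels were compared in limma on quantile-normalized log2(FPKM + 1), for all 18188 genes that had some signal (more than 0 FPKM in 3 or more kidneys). Fold changes below are on that scale. A gene was called higher or lower at a Benjamini-Hochberg adjusted p under 0.05 over all genes tested. The 8 comparisons with 0 min share its 3 kidneys.

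At 16 min, 45 of the 89 genes (50.6%) were called higher than at 0 min, where 9.43% of all genes were, and 1 was called lower, where 9.61% of all genes were. The median log2 fold change of the 89 was 0.24, against 0.00 over all genes. All 3 stalk genes, 18 of 31 genes of the 40S and 23 of 43 genes of the 60S subunit rose, and 1 of the 11 copies did. The count turned on single kidneys. It was 67 without replicate 3 of the 16 min group, 20 without replicate 2 and 25 without replicate 1, 29 and 28 without replicates 1 and 2 of the sham group, and it fell to 0 when only these 6 kidneys were fitted, where 16 of all 18188 genes were called.

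Rpl12, a 60S protein beside the stalk, had the largest increase at 16 min. Its level was 266, 253 and 301 FPKM in the sham kidneys and 532, 609 and 354 FPKM at 16 min, so the groups did not overlap. The log2 fold change was 0.87 ± 0.12 (SE, n = 3 each, adjusted p = 0.000158). Rpsa, a 40S protein also known as the laminin receptor, had 319, 293 and 331 FPKM at 0 min and 601, 657 and 362 FPKM at 16 min, a log2 fold change of 0.72 ± 0.11 (SE, adjusted p = 0.000263). Rps2 and Rps12 of the 40S subunit and the stalk protein Rplp1 followed with log2 fold changes of 0.64, 0.59 and 0.57. For Rplp1 the 760 FPKM of replicate 3 at 16 min fell within the 707 to 795 FPKM of the sham kidneys, and its call was lost without replicate 2 (adjusted p = 0.0803). The only gene called lower was Rpl3l.

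Between 18 and 26 min the number called higher than at 0 min moved between 53 and 67. It was 60 at 18 min (12.6% of all genes called higher, 15.2% lower), 53 at 20 min (10.7% and 12.1%), 64 at 22 min (13.4% and 15.4%), 62 at 24 min (13.6% and 14.8%) and 67 at 26 min (14.9% and 15.2%). The medians of the 89 log2 fold changes were 0.36, 0.30, 0.38, 0.35 and 0.39 in that order. Rpl3l was the 1 gene called lower at each of these times. Among the 67 at 26 min was Rpl39l, which was listed at no more than 0.12 FPKM in any kidney.

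Between 16 and 26 min no gene was called. For 26 min against 16 min limma called 0 of the 89 genes higher and 0 lower, and the same was true of all genes (0% each way). The median of the 89 was 0.14 on the log2 scale, and 23 of them had an unadjusted p under 0.05. Without replicate 3 of the 16 min group that median was 0.02.

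The next step up came between 26 and 28 min. Against 26 min, 69 of the 89 genes (77.5%) were called higher at 28 min, where 10.8% of all genes were, and 1 was called lower, where 8.52% of all genes were. The median log2 fold change was 0.32, against 0.00 over all genes. The genes called higher were 25 of 31 for the 40S subunit, 37 of 43 for the 60S subunit, all 3 for the stalk, 3 of 11 copies, and Rps19bp1. The count was 39 without replicate 2 of the 26 min group and between 51 and 65 without each of the other 5 kidneys.

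Rps12, of the 40S subunit, had the largest increase here. Its level was 892, 708 and 845 FPKM at 26 min and 1255, 1249 and 1380 FPKM at 28 min, so every 28 min kidney stood above every 26 min kidney. The log2 fold change was 0.71 ± 0.11 (SE, n = 3 each, adjusted p = 0.000181). Rps19bp1 followed at 0.55 ± 0.14, from 21.2 to 31.8 FPKM, then Rps20 of the 40S subunit at 0.55 ± 0.12, from 53.9 to 79.8 FPKM. Rpl37 of the 60S and Rps15a of the 40S subunit came next, with log2 fold changes of 0.52 ± 0.15 and 0.51 ± 0.10. Rps15a went from 26.9 to 39.4 FPKM. The levels of Rps20 and Rps15a lie far below those of most core genes. Whether fragments of these 2 genes were assigned to other rows was not tested. None of these 5 had overlapping groups, but they were chosen as the largest increases of this comparison. The groups of Rpl29, which was not called (adjusted p = 0.77), did not overlap either. The calls of Rps19bp1 and Rpl37 were lost without replicate 2 of the 26 min group (adjusted p = 0.0614 and 0.127), and that of Rpl37 also without replicate 3 of the 28 min group (adjusted p = 0.0855).

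Of the 5 genes with the largest increases at 16 min, 3 were called again in this step. These were Rps12, Rplp1 at 0.49 ± 0.14 (SE, adjusted p = 0.0206) and Rpl12 at 0.44 ± 0.12 (SE, adjusted p = 0.0186). For Rpsa the log2 fold change from 26 to 28 min was 0.29 ± 0.11 (adjusted p = 0.0672) and for Rps2 it was 0.22 ± 0.12 (adjusted p = 0.232), and neither was called, although in both every 28 min kidney stood above every 26 min kidney. Rpl5 and Rpl11, which together with 5S rRNA form a particle that binds Mdm2, both rose from 26 to 28 min. Rpl5 went from 455, 417 and 466 FPKM to 627, 629 and 655 FPKM, a log2 fold change of 0.39 ± 0.07 (SE, adjusted p = 0.000417). At 16 min Rpl5 had been at 394, 437 and 373 FPKM, a log2 fold change of -0.01 ± 0.07 against sham (SE, adjusted p = 0.965). Rpl11 had risen by then, with a log2 fold change of 0.39 ± 0.11 at 16 min (SE, adjusted p = 0.0153) and 0.37 ± 0.11 from 26 to 28 min (SE, adjusted p = 0.0189).

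**Figure D3:**
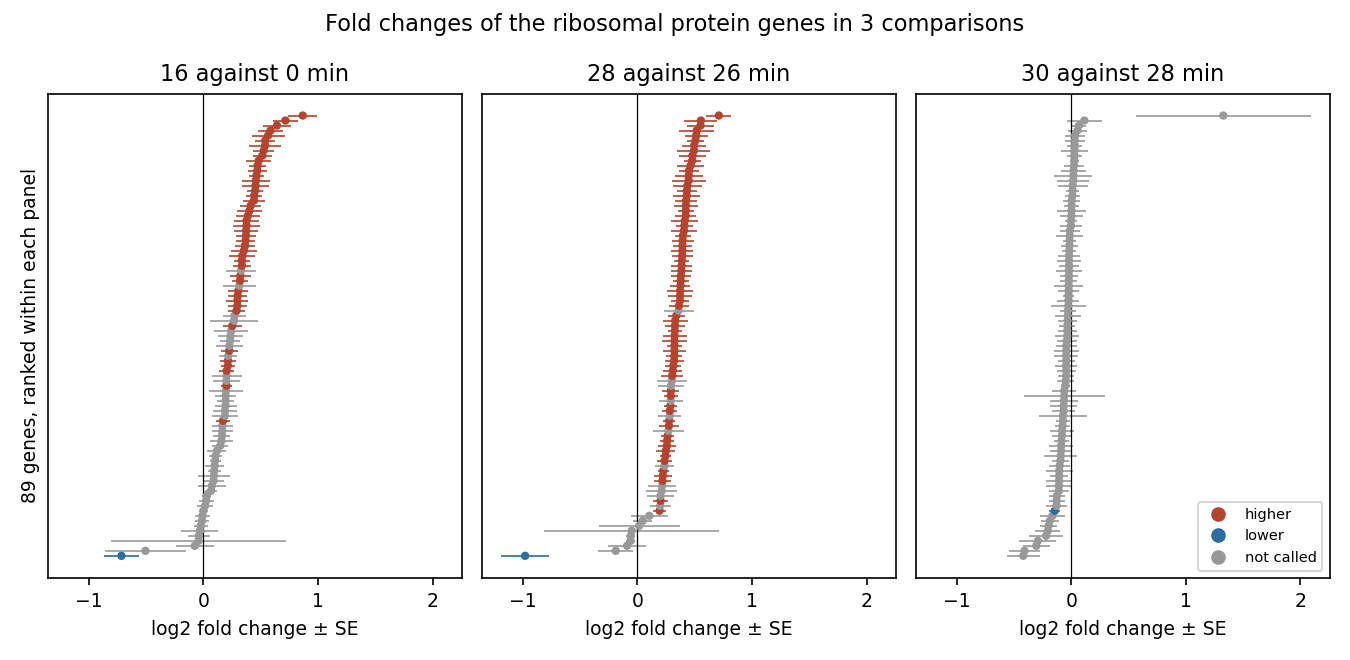
Log2 fold changes with SE (x axis) of the 89 genes, ranked within each panel (y axis), for 16 against 0 min, 28 against 26 min and 30 against 28 min. Red genes were called higher, blue lower and grey not called: 45 red and 1 blue in the first panel, 69 and 1 in the second, 0 and 1 in the third. The point far to the right of the third panel is Rps27rt.

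At 28 min against sham, 81 of the 89 genes (91.0%) were called higher, where 24.5% of all genes were, and 2 were called lower, where 23.6% of all genes were. The median log2 fold change was 0.77, which is 1.71-fold, and all 43 genes of the 60S, 30 of 31 of the 40S subunit and all 3 of the stalk rose. With the study's limit for differential expression, an absolute log2 fold change above 1 beside the adjusted p, 12 genes (13.5%) were higher, where 4.27% of all genes were, and 1 was lower, where 4.21% of all genes were. These 12 were Rpl12, Rpl13, Rpl18, Rpl36a, Rpl39, Rplp1, Rplp2, Rps2, Rps12, Rps19, Rps26 and Rpsa.

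At 30 min against sham the counts were again 81 higher and 2 lower, where 26.9% of all genes were called higher and 25.4% lower. The median log2 fold change was 0.71, and the quartiles were 0.51 and 0.87. By the limit of 1 on the log2 scale 10 genes were higher and 1 lower, where 5.14% and 5.59% of all genes were. The 6 genes not called were Rpl10l, Rpl32l, Rpl37rt, Rpl39l, Rps27 and Rps6, of which the first 4 are copies. Rps27, at 0.20 ± 0.10 (SE, adjusted p = 0.099), was called higher without quantile normalization and in TPM (log2 fold change 0.33 in both, adjusted p = 0.0422 and 0.0226) and without replicate 2 of the 30 min group (0.29, adjusted p = 0.0241).

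Rpl12 was again far up at 30 min. It had 977, 855 and 732 FPKM, all above the sham kidneys, and a log2 fold change of 1.61 ± 0.12, which is 3.05-fold (SE, n = 3 each, adjusted p = 2.56e-09). Rps12 had 1443, 1225 and 1012 FPKM at 30 min and 430, 421 and 461 FPKM at 0 min, a log2 fold change of 1.26 ± 0.11 (SE, adjusted p = 9.35e-09). Rpl36a of the 60S subunit rose from a mean of 211 to 468 FPKM and Rpsa from 314 to 765 FPKM, with log2 fold changes of 1.18 ± 0.12 and 1.16 ± 0.11. In all 4, which were named for their large increases, the 30 min kidneys stood above the sham kidneys.

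The largest fitted increase belonged to Rps27rt, and it rested on very few fragments. The copy was listed at 0, 2.17 and 0 FPKM at 0 min and at 9.93, 8.13 and 6.29 FPKM at 30 min, where 1 fragment was worth about 2 FPKM. The log2 fold change was 2.55 ± 0.77 (SE, adjusted p = 0.00815). At 28 min the values were 13.8, 0 and 2 FPKM and overlapped those of the sham kidneys. Rps27 itself, whose start is printed above beside that of the copy, had 659 to 696 FPKM at 0 min and 776 to 963 FPKM at 30 min, and reads of the copy and of Rps27 can be shared between the rows.

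The stalk proteins Rplp0, Rplp1 and Rplp2, which recruit the elongation factors, rose in all 8 comparisons with sham. Rplp0 had 466, 450 and 512 FPKM at 0 min, 699, 757 and 521 FPKM at 16 min, 1069, 1017 and 1036 FPKM at 28 min and 1122, 1019 and 932 FPKM at 30 min. Its log2 fold change was 0.34 ± 0.07 at 16 min, 0.91 ± 0.07 at 28 min and 0.89 ± 0.07 at 30 min (SE). Rplp2 had values of 0.54, 1.09 and 1.07 at these times. Rplp1 reached 1.34 at 28 min and 0.92 at 30 min, and the difference between 28 and 30 min was not called. Rpl41, Rps2 and Rplp1 had the highest mean levels of the 89 genes, at 1797, 1387 and 1301 FPKM over all kidneys.

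Quantile normalization, which forces all kidneys to the same distribution, can change the fold of such abundant genes. At 30 min it gave a smaller fold than the deposited values for Rpl41 and Rplp1. The ratio of the mean FPKM at 30 and 0 min was 1.91 for Rpl41, whose fitted fold was 1.42, and 2.21 for Rplp1, whose fitted fold was 1.89. Less abundant genes differed too, in both directions. Rpl7 had a ratio of 1.49 and a fitted fold of 1.25, and Rpl27 a ratio of 1.70 and a fitted fold of 1.79. At 28 min the order was the other way for Rplp1, with a ratio of 2.46 and a fitted fold of 2.53. Without this step the median log2 fold change of the 89 genes was 0.90 at 28 min against sham and 0.44 from 26 to 28 min.

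From 28 to 30 min few of the ribosomal protein genes passed the test. Of the 89 genes, limma called 0 higher and 1 lower at 30 min than at 28 min, where 6.47% of all genes were called higher and 6.77% lower, and 6 had an unadjusted p under 0.05. The median was -0.04 on the log2 scale. The 1 gene, named after its value was seen, was Rpl7a of the 60S subunit, with a log2 fold change of -0.14 ± 0.05 (SE, adjusted p = 0.0456). Without replicate 1 of the 30 min group 7 genes were called lower, and without each of the other 5 kidneys the number was 0.

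**Figure D4:**
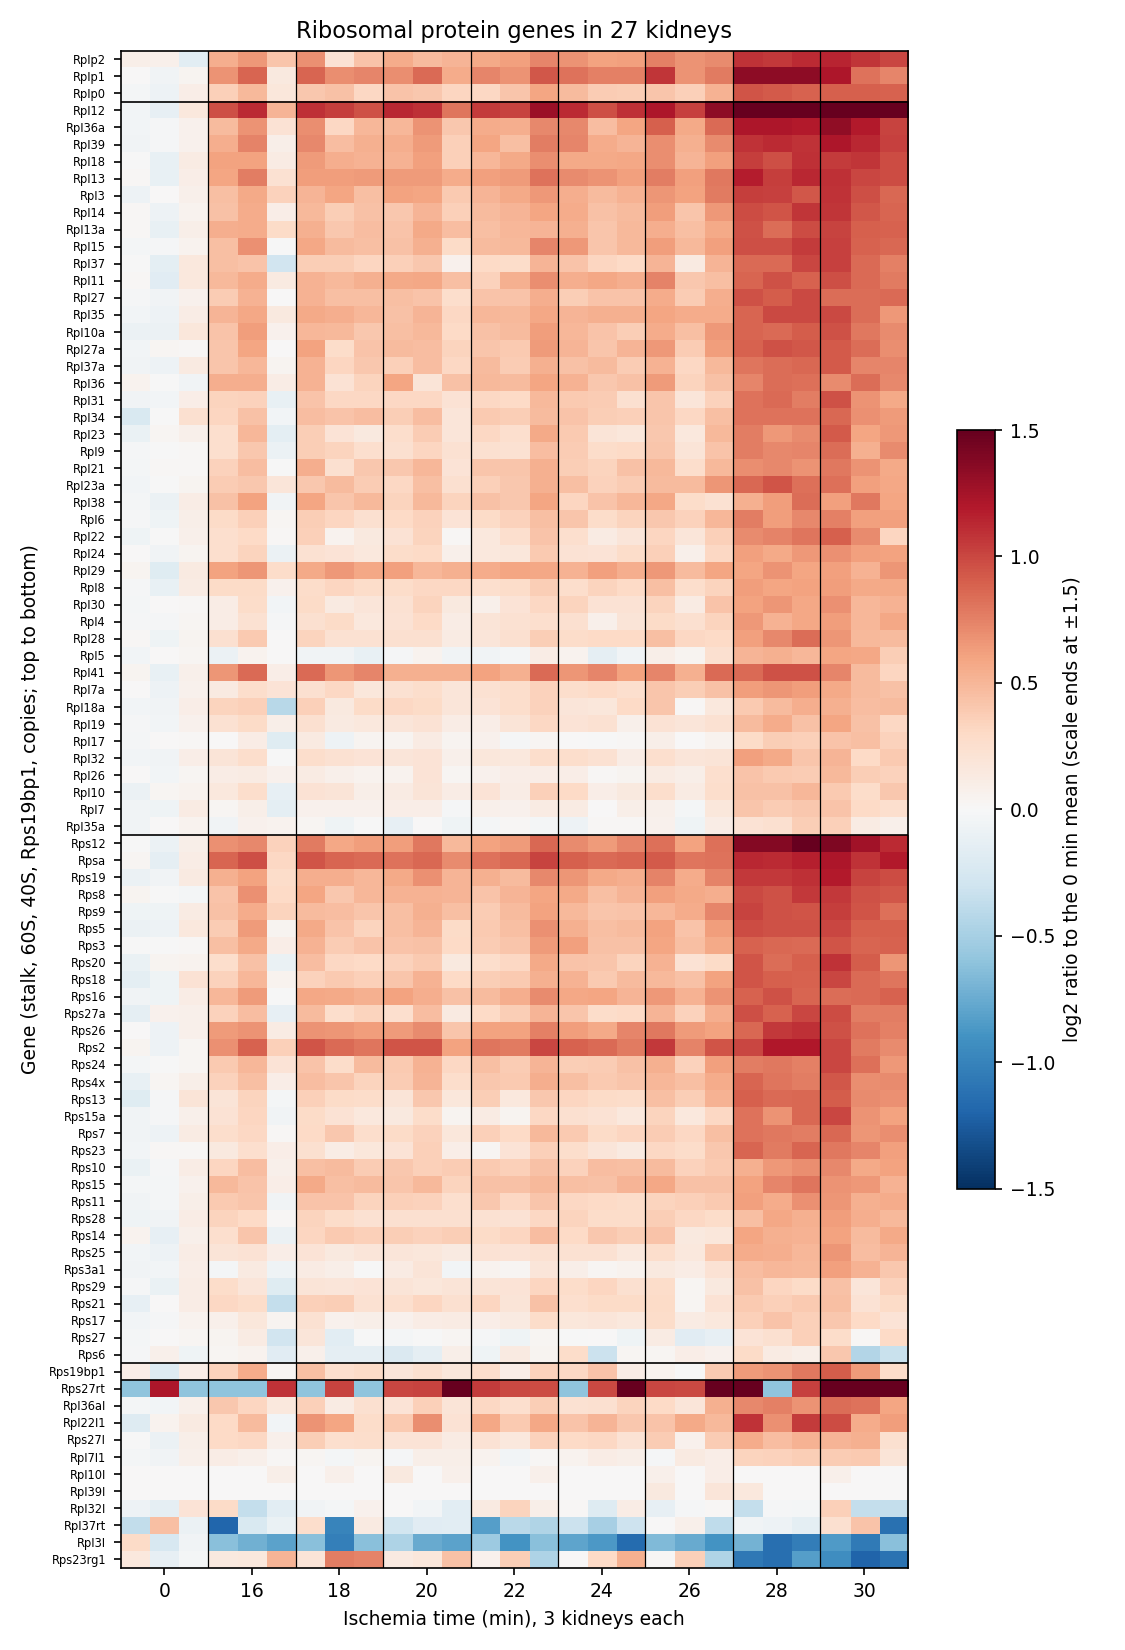
Log2 ratio to the 0 min mean, quantile normalized, for the 89 genes (rows) in the 27 kidneys (columns, 3 per ischemia time). Rows run from the stalk through the 60S and 40S genes and Rps19bp1 to the copies, each ranked by the change at 30 min, and colours end at 1.5 and -1.5. The core genes darken together at 28 and 30 min, replicate 3 at 16 min is paler than its group, and the copies Rpl3l and Rps23rg1 at the bottom turn blue.

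Most of the genes varied together. The level of each was correlated with the mean of the other 88 over the 27 kidneys as a description, the points sharing their groups. The median Pearson r was 0.95, and 74 of the 89 genes had an r of at least 0.8. No such r is given here for other sets of genes. With the mean of each ischemia time taken out, the median r was 0.80, so kidneys of the same time also differed along this line. The genes least alike the rest were the copies Rps23rg1 (r = -0.73), Rpl3l (r = -0.64) and Rpl32l (r = -0.11).

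Rpl3l is a copy of Rpl3 known from skeletal muscle and heart. It stood at 3.57, 2.10 and 2.64 FPKM at 0 min and at 1.66, 1.59 and 1.27 FPKM at 16 min, and in none of the other clamped kidneys was it above 2.07 FPKM. All 24 clamped kidneys were thus below the lowest sham kidney. It was called lower in all 8 comparisons with sham, with log2 fold changes from -0.67 to -0.96 (SE 0.15). Rpl3 rose over the same times, from 245, 258 and 268 FPKM to 584, 512 and 430 FPKM at 30 min, a log2 fold change of 0.97 ± 0.07 (SE, adjusted p = 1.08e-09). The copy made up 1.07% ± 0.326 of the pair's summed FPKM at 0 min and 0.257% ± 0.114 at 30 min (SD, n = 3 each).

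Rps23rg1, a retroposed copy of Rps23, followed another course. It had 1.51, 0.98 and 1.19 FPKM at 0 min, 1.51, 2.19 and 0.75 FPKM at 26 min, 0.14, 0.10 and 0.35 FPKM at 28 min and 0.28, 0.05 and 0.14 FPKM at 30 min. None of the 6 kidneys at 28 and 30 min reached the lowest of the other 21. It was not called at any time up to 26 min against sham, and its log2 fold change was -0.98 ± 0.21 from 26 to 28 min (SE, adjusted p = 0.00305) and -1.08 ± 0.21 at 30 min against sham (SE, adjusted p = 0.000217). Rps23 in contrast had 696, 600 and 677 FPKM at 26 min and 962, 939 and 1030 FPKM at 28 min. These levels of Rps23rg1 are near the lower end of the scale, where adding 1 FPKM before the logarithm makes folds smaller.

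The other copies differed in how they moved beside their partners. Rpl22l1 had 29.1, 34.9 and 38.1 FPKM at 0 min and 70.0, 52.9 and 52.8 FPKM at 30 min, a log2 fold change of 0.72 ± 0.15 (SE, adjusted p = 0.000374), and Rpl22 had 0.64 ± 0.12 (SE, adjusted p = 9.85e-05). The share of Rpl22l1 in the pair was 32.0% ± 2.06 at 0 min and 34.4% ± 3.45 at 30 min (SD, n = 3 each), and the ranges overlapped. Rpl36al rose less than Rpl36a, with log2 fold changes of 0.75 ± 0.08 and 1.18 ± 0.12 at 30 min, and its share of the pair went from 50.0 to 50.7% in the sham kidneys to 41.3 to 43.7% at 30 min, without overlap. Rps27l, a copy of Rps27 induced by p53, rose at 30 min with a log2 fold change of 0.43 ± 0.09 (SE, adjusted p = 0.000259), while its groups overlapped. With equal medians that value was 0.19 and the gene was not called (adjusted p = 0.105). Rpl37rt, a retroposed copy of Rpl37, had a mean of 23.8 FPKM at 0 min and 24.4 FPKM at 30 min and was not called, while Rpl37 rose by 0.87 ± 0.15 on the log2 scale (SE, adjusted p = 5.91e-05). Rpl7l1 rose from 29.4 to 38.6 FPKM and its partner Rpl7 from 436 to 648 FPKM. The fitted log2 fold change was 0.32 for both, but the ratios of mean FPKM were 1.31 and 1.49. The share of Rpl7l1 in the pair was 6.25 to 6.37% in the sham kidneys and 5.17 to 5.97% at 30 min, without overlap. Among the other partners, Rpl10, Rpl39 and Rps4x had log2 fold changes of 0.35, 1.12 and 0.78 at 30 min and were called higher. The copies Rpl10l and Rpl39l, known from testis, were listed at no more than 0.12 FPKM, and Rpl32l at no more than 0.66 FPKM.

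**Figure D5:**
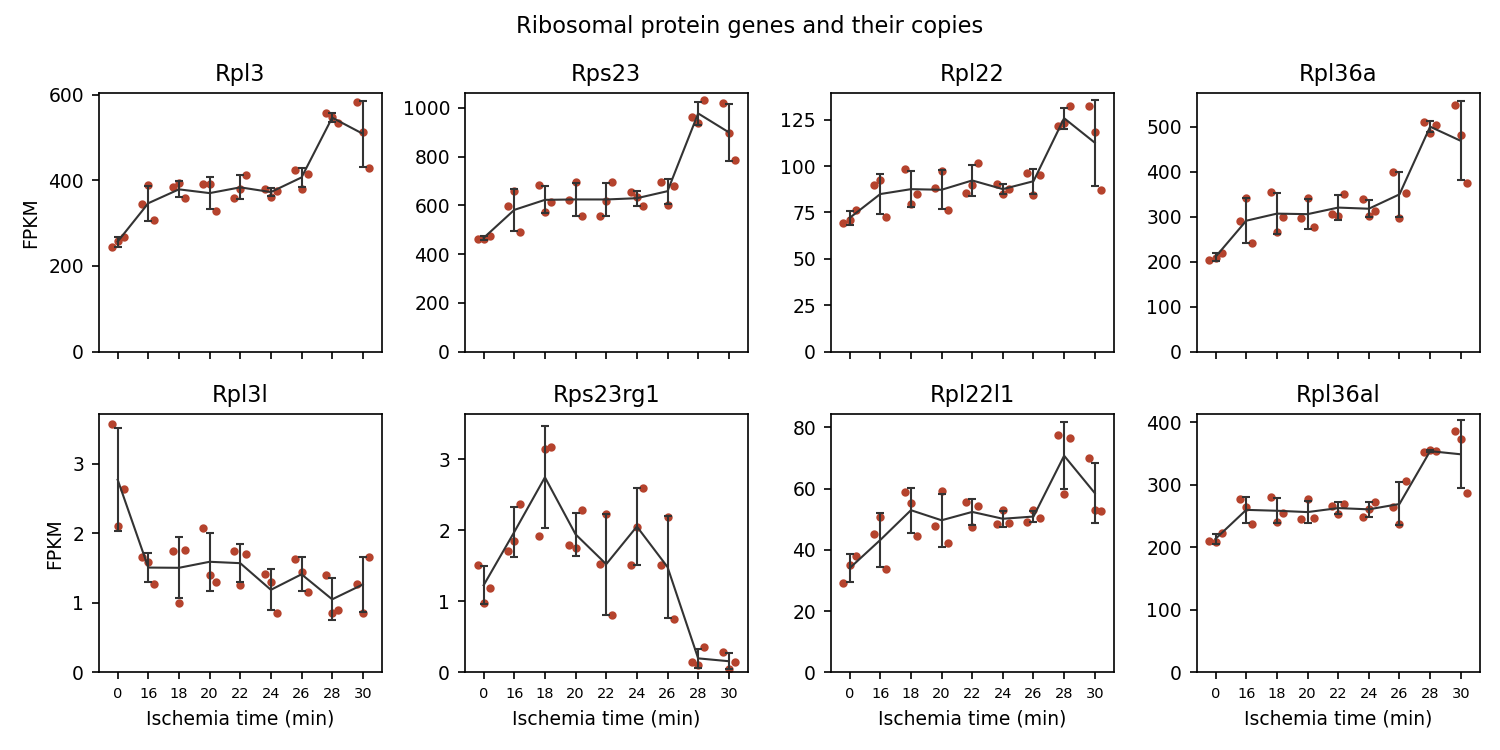
FPKM (y axes, each from 0) by ischemia time (x axes, min) for 4 ribosomal protein genes (top) and their copies (bottom). Points are kidneys, lines join the means and error bars are SD (n = 3). Rpl3l drops from 2.77 FPKM at 0 min to 1.51 FPKM at 16 min, Rps23rg1 drops from 1.48 FPKM at 26 min to 0.197 FPKM at 28 min, and the other 6 panels rise.

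Rps6, the 40S protein phosphorylated downstream of mTORC1, was an exception that depended on another row of the file. Its level was only 14.5, 15.5 and 14.4 FPKM at 0 min and 21.5, 11.3 and 12.6 FPKM at 30 min, a log2 fold change of -0.13 ± 0.16 (SE, adjusted p = 0.557). Without replicate 1 of the 30 min group, the kidney at 21.5 FPKM, that value was -0.39 and the gene was called lower (adjusted p = 0.0157). The processed pseudogene Rps6-ps4, which the choice of genes leaves out, was listed at 518 ± 24.7 FPKM at 0 min and 921 ± 112 FPKM at 30 min (SD, n = 3 each). It held 97.2% of the sum of both rows at 0 min. Summed into 1 row, Rps6 and Rps6-ps4 had a log2 fold change of 0.57 ± 0.06 (SE, adjusted p = 2.11e-07). Rps6 lies on chr4:86854660-86857412 and Rps6-ps4 on chr2:75191073-75191822 (GRCm38, GENCODE vM21). Fragments from near-identical sequences can be assigned to either row, and the level of the Rps6 row is therefore uncertain. Rpl31 shows the same arrangement, with 149 FPKM in its own row and 154 FPKM in Rpl31-ps12 at 0 min, but both rows rose at 30 min.

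The other genes of the translation apparatus whose mRNAs are known to carry a TOP motif moved in part with the ribosomal proteins. Of 18 such genes, 13 were called higher and 0 lower from 26 to 28 min, with a median log2 fold change of 0.33, where 10.8% and 8.52% of all genes were called. At 30 min against sham 11 were higher and 2 lower, with a median of 0.52, where the shares of all genes were 26.9% and 25.4%. From 16 to 24 min 4 to 7 of the 18 were higher than at 0 min and 3 to 4 lower, with medians between 0.07 and 0.14. Of all genes, 9.43 to 13.6% were called higher and 9.61 to 15.4% lower at these times. Npm1, a nucleolar chaperone of ribosome assembly, rose by 0.76 ± 0.15 on the log2 scale from 26 to 28 min (SE, adjusted p = 0.00138), and the elongation factor subunit Eef1g was 1.08 ± 0.10 higher at 30 min than at 0 min (SE, adjusted p = 3.05e-08). Fau, which encodes a ribosomal protein made as a fusion to a ubiquitin-like protein, had a log2 fold change of 0.07 ± 0.06 at 30 min (SE) and was not called. The 2 called lower, Eef1a1 and Eef2, depended on the scaling. Eef1a1 had a mean of 2871 FPKM at 0 min and 3453 FPKM at 30 min, a log2 fold change of -0.50 after quantile normalization and 0.26 without it (adjusted p = 0.00118 and 0.0166), and Eef2 had -0.18 and 0.039. The call of Eef2 was lost without replicate 2 or 3 of the sham group or replicate 2 of the 30 min group (adjusted p = 0.0895, 0.0644 and 0.082).

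Of 24 genes of translation initiation and its control, 14 were called higher and 1 lower from 26 to 28 min, and 17 higher and 3 lower at 30 min against sham, beside the same shares of all genes. From 16 to 24 min 4 to 7 of the 24 were higher than at 0 min and 2 to 4 lower. The shares of all genes at these times were 9.43 to 13.6% higher and 9.61 to 15.4% lower. Eif4ebp1, the repressor of the cap-binding protein Eif4e, had 21.0 ± 4.98 FPKM at 0 min, 47.6 ± 13.0 FPKM at 26 min, 110 ± 13.3 FPKM at 28 min and 148 ± 19.1 FPKM at 30 min (SD, n = 3 each). Its log2 fold change at 30 min against sham was 2.82 ± 0.28 (SE, adjusted p = 6.61e-08). Eif6, which keeps the 60S subunit from joining too early, had 1.99 ± 0.21, and Myc, a transcription factor of ribosome genes, had 2.39 ± 0.33 (SE, adjusted p = 1.03e-07 and 3.72e-06). Larp1 rose by 0.29 ± 0.04 on the log2 scale, and Mtor fell by 0.61 on the log2 scale (SE 0.15, adjusted p = 0.0015). The other 2 called lower at 30 min were Eif4a2 and Eif4ebp2.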

How the data were processed

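The left kidneys of 27 mice were sequenced by the authors on DNBSEQ-G400. They deposited linear FPKM, rounded to 2 decimals, with 1 row for each gene symbol. The submitters' processing notes name Bowtie2, RSEM and DESeq2 and the build GRCm38.p6, while versions and annotation are not given in the sources used here. No fragment counts were used, and precision rests on the 3 replicates per time.

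The titles gave each sample its ischemia time. Values were taken as log2(FPKM + 1), quantile normalized and fitted for 18188 genes in limma 3.58.1 (R 4.3.3), all 27 kidneys together and each time with its own mean. P-values were adjusted by Benjamini-Hochberg within each of 11 comparisons over all these genes. No p-value was computed over the ribosomal protein genes as a list. The steps were tested on simulated data.

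The genes, lists and comparisons were chosen with earlier results of these data known. Named genes were the 5 largest increases and decreases among called genes for 16 against 0, 28 against 26 and 30 against 0 min, a set list (stalk proteins, Rpsa, Rps6, Rpl5, Rpl11, Rps19bp1, and copies with their partners), the 3 highest and 3 lowest in level, and the 3 least alike the rest. Promoters came from RefSeq (GRCm38.p6), gene models from GENCODE vM21. Proteins were not analysed here.

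Alternatives were a pseudocount of 0.1 FPKM, 4 other scalings, 2 other filters on low values, a fit of only the groups compared, a variance trend, the replicate number as a block, and leaving out each kidney. Sums with pseudogene rows and the scalings of Eef1a1, Eef2 and the lists of other translation genes were added after the data were seen.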

Additional observations from a re-analysis of the deposited data

How the results depend on the processing

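The direction of every called ribosomal protein gene was kept under the 4 other scalings in all 11 comparisons, except that of Rpl39l at 26 min, a gene near 0 FPKM, when medians were made equal. The counts of genes called higher at 18 to 30 min against sham, and from 26 to 28 min, stayed within 1.5 times the main count under all 10 alternatives run. At 16 min against sham the count of 45 became 25 with equal medians, and in a fit of only the 6 kidneys compared 0 genes were called higher and 0 lower. Leaving out a kidney gave 20 to 67 genes higher with a median log2 fold change of 0.17 to 0.38 for this comparison, and 39 to 65 genes higher from 26 to 28 min. For 26 against 16 min it gave 0 to 1 genes higher and a median of 0.020 to 0.23, and for 30 against 28 min 0 to 1 genes higher and 0 to 7 lower.

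The 1 gene lower at 30 min than at 28 min became 0 with a pseudocount of 0.1 FPKM, under all 4 other scalings, in the fit of only these kidneys, with a variance trend and with the replicate block, and 2 with a filter of at least 1 FPKM in 3 kidneys. The genes lower than sham became 2 at 24 min with equal medians and 0 at 20 min in the fit of only these kidneys. Without quantile normalization the median log2 fold change was 0.46 at 18 min, 0.46 at 24 min and 0.90 at 28 min against sham, and 0.44 from 26 to 28 min. After scaling to a constant sum (TPM) it was 0.46 at 24 min and 0.89 at 28 min, and from 26 to 28 min it was 0.42 with a constant sum over the other genes and 0.44 with equal medians. Without Kap the mean share was 5.98% at 0 min and 8.03% at 24 min.

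At 30 min against sham the log2 fold change of Eef1a1 was 0.26 without quantile normalization, 0.26 in TPM, 0.20 with a constant sum over the other genes and 0.16 with equal medians, and that of Eef2 was 0.039 and 0.040 in the first 2 of these. Rpl39l had -0.10 with equal medians, and Rps6 summed with Rps6-ps4 had 0.57. Why these values changed was not tested.

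Replicate numbers did not pair the kidneys, since 25 of 108 same-numbered pairs from different times had correlated deviations above 0.1 (mean r 0.01). With the replicate block 44 genes were higher at 16 min, 66 from 26 to 28 min and 81 at 30 min against sham, and other than the 1 gene named above the counts stayed within 1.5 times.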
